A study of Caenorhabditis elegans with 12 samples.

Results

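The salt by food interaction asks whether lack of food changes a transcript's level differently at high than at low salt. It was taken over all 12 libraries of the series, which hold whole L1 larvae, the first larval stage, of *Caenorhabditis elegans* wild-type strain N2. Each of the 4 groups has 3 biological replicates with the letters A, B and C. The groups are unfed larvae on 500 mM NaCl (unfed high-salt), larvae on 500 mM NaCl with *Escherichia coli* OP50 as food (fed high-salt), unfed larvae on 100 mM NaCl (unfed low-salt) and larvae on 100 mM NaCl with OP50 (fed low-salt). Embryos freed by bleaching were plated at 5000 per plate and kept at 25 °C for 24 h, a time that all groups share. Each library thus pools many animals, and how far each group had developed by then and the treatment itself cannot be told apart.

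Larvae that hatch without food stop at the first stage and live off their stores, a state called L1 arrest, and hatching into strong salt also stops growth. Stored fat is released by lipases and broken down by β-oxidation, a cycle of oxidation, hydration, a second oxidation and thiolytic cleavage that runs in mitochondria and, for very long and branched chains, in peroxisomes. In *C. elegans* the peroxisomal cycle also shortens the side chains of ascarosides, the secreted signals that mark crowding. Heat shock proteins fold or hold damaged proteins, and the insulin-like and steroid hormone pathways decide between growth and arrest.

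The interaction is the log2 unfed/fed ratio at 500 mM NaCl minus the log2 unfed/fed ratio at 100 mM NaCl, so a positive value means that the ratio was higher at high salt. Levels are counts per 1000000 reads (CPM) of the scaled library. EdgeR's quasi-likelihood F-test was run over the 18028 genes with enough reads, and a gene was called where the p value, after Benjamini-Hochberg adjustment, was under 0.05. This value is written below as the edgeR adjusted p. The shallowest library, unfed high-salt A, had 5613260 reads on genes and the deepest, fed low-salt C, had 76542711. Of the reads of the shallowest library 38.6% aligned, against 70.05% to 91.25% in the other libraries, and in fed high-salt C 81.8% of the reads on genes were ribosomal RNA, against 1.32% to 39.9% in the others. These 2 libraries stand apart, and counts are also given without both. The part of either feature in the results was not tested. Of the defining tissue markers, *unc-54*, the body-wall myosin, and *elt-2*, the intestinal GATA factor, were detected in all 12 libraries.

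Lack of food had a different effect at the 2 salt levels for 360 genes, or 2% of those tested. The interaction was positive for 282 genes (1.56%) and negative for 78 genes (0.433%). With upper-quartile scaling in place of the trimmed mean of M-values (TMM), the split became 185 positive and 194 negative, while the median over all genes moved to -0.30 against -0.04 under TMM. Of the 360 genes, 183 of those with a positive and 76 of those with a negative interaction were called under both scalings. The other comparisons share all of these libraries with the interaction and are given for scale: lack of food alone passed the test for 14 genes (0.0777%) at 500 mM NaCl, 13 higher (0.0721%) and 1 lower (0.00555%). At 100 mM NaCl it passed for 1384 genes (7.68%), 643 higher (3.57%) and 741 lower (4.11%).

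The genes with a positive interaction had a median log2 unfed/fed of 0.67 at 500 mM and of -1.4 at 100 mM NaCl. In 256 of the 282 the highest mean CPM was in fed low-salt larvae, and in 205 the lowest mean CPM was in fed high-salt larvae. In 212 of the 282 all 3 fed low-salt libraries lay above the other 9 libraries, a pattern found in 12.8% of all genes tested. The groups were taken from fed low-salt to unfed low-salt to fed high-salt, with unfed high-salt at the end. Genes already counted for a group were left out of the later counts and of their shares of all genes. Among the genes left, the unfed low-salt libraries lay below the other 9 in 34 (1.66% of all genes). The fed high-salt libraries then did so in 15 (1.68%). These 15 leave out *maoc-1*, *daf-22* and *pmp-2*, for example, whose fed high-salt libraries also lay below the other 9. Of the 9 unfed/fed ratios that single libraries give at each salt level, all at 500 mM lay above all at 100 mM in 281 of the 282 (7.32% of all genes). The genes with a negative interaction had a median log2 unfed/fed of -0.55 at 500 mM and of 1.93 at 100 mM NaCl. Among these 78, counted in the same order, the fed low-salt libraries lay below the other 9 in 41 (8.9% of all genes). The unfed low-salt libraries lay above in 24 (2.63%) and the unfed high-salt libraries below in 9 (0.727%). The last counts again leave out genes already counted for a group earlier in that order. The ratios at 500 mM lay below all those at 100 mM in 70 of the 78 (3% of all genes).

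**Figure D1:**
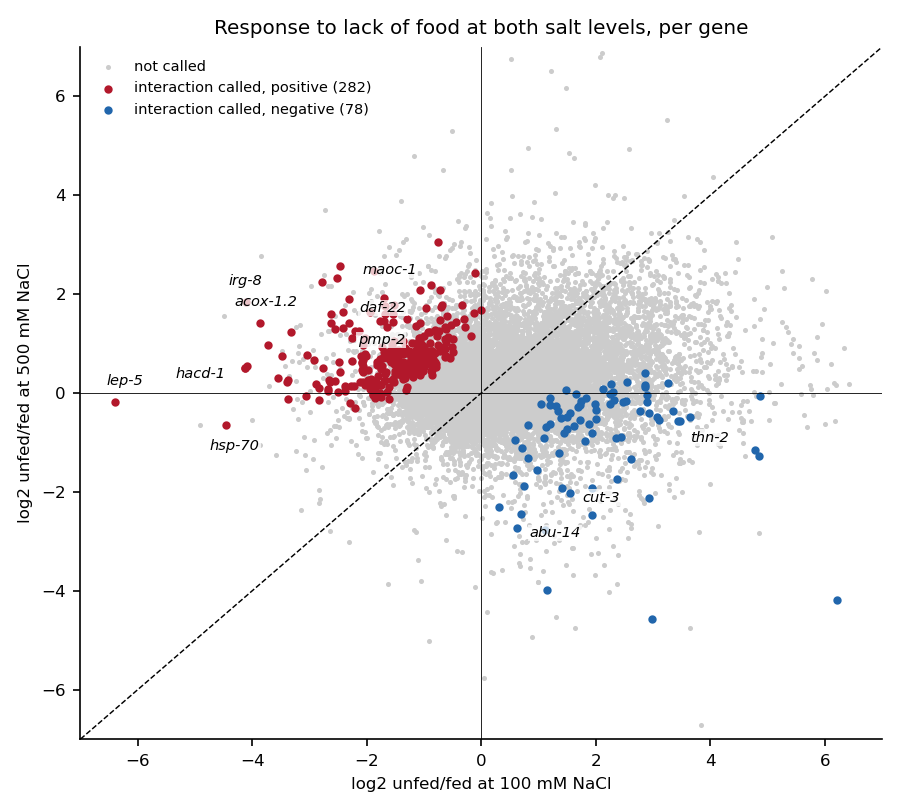
Log2 unfed/fed at 500 mM NaCl (vertical axis) against log2 unfed/fed at 100 mM NaCl (horizontal axis), 1 point per gene. Points on the dashed diagonal have an interaction of 0, the 282 genes called positive lie above it and the 78 called negative lie below it, and 2 of the 18028 genes fall outside the axes.

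The number of calls depended on single libraries. Leaving out A, B or C of the unfed high-salt group, the test called 967, 475 or 259 genes. For the fed high-salt group the counts were 151, 76 or 178 in the same order. For the unfed low-salt group they were 65, 87 or 924 genes, and for the fed low-salt group 102, 63 or 94. Leaving out unfed high-salt A and fed high-salt C together gave 408 positive and 222 negative calls, among them 252 of the 282 and 64 of the 78. Unfed low-salt C had the highest CPM of its group in 207 of the 282 genes with a positive interaction and the lowest in 53 of the 78 with a negative one, so it lay on the side of fed low-salt larvae. In all 12 fits that left out 1 library, 34 positive and 10 negative calls held, and the called genes below are given with how many of those 12 fits kept their call, or with the libraries without which it was lost.

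**Figure D2:**
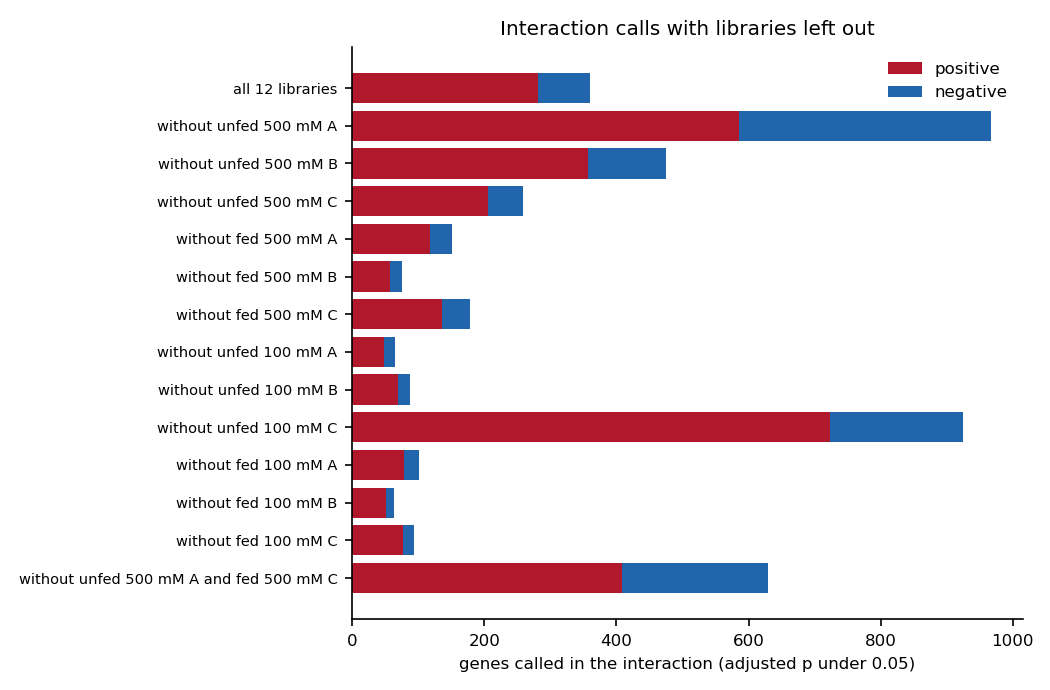
Number of genes called in the interaction (horizontal axis) with all 12 libraries, with each library left out in turn, and with unfed high-salt A and fed high-salt C both left out. Bars stack positive and negative calls, and run from 63 genes without fed low-salt B to 967 without unfed high-salt A.

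Of the 18028 genes, 3 were called for lack of food at both salt levels with opposite signs, and all 3 act in peroxisomal lipid metabolism. They are *maoc-1*, an enoyl-CoA hydratase of the peroxisomal cycle, *daf-22*, the thiolase that closes it, and *pmp-2*, an ABC transporter of the peroxisomal membrane family. *maoc-1* had 58.7, 62.6 and 41.9 CPM in unfed high-salt larvae and 16, 11.5 and 10.8 CPM in fed high-salt larvae. It had 69.0, 69.4 and 76.9 CPM in unfed low-salt larvae and 177, 152 and 121 CPM in fed low-salt larvae. At 500 mM the unfed libraries were all above the fed ones, and at 100 mM they were all below them. The log2 unfed/fed of *maoc-1* was 2.08 ± 0.27 at 500 mM and -1.06 ± 0.25 at 100 mM NaCl, and its log2 interaction was 3.14 ± 0.37 (SE; edgeR adjusted p = 0.00136). For *daf-22* there were 114, 131 and 101.5 CPM in unfed high-salt larvae and 39.9, 36 and 28.6 CPM in fed high-salt larvae, with 169, 132 and 169.6 CPM in unfed low-salt larvae and 339, 324 and 252 CPM in fed low-salt larvae. The fed high-salt libraries were the lowest and the fed low-salt libraries the highest, with both unfed groups between them, and the log2 interaction was 2.68 ± 0.35 (SE; edgeR adjusted p = 0.00412). Counts of *pmp-2* gave 48.5, 36.9 and 41.9 CPM in unfed high-salt larvae and 14.5, 17.5 and 15.6 CPM in fed high-salt larvae, and 34.1, 42 and 54.5 CPM in unfed low-salt larvae and 95.4, 96.5 and 82.0 CPM in fed low-salt larvae. Both unfed groups overlapped, fed high-salt larvae were lower and fed low-salt larvae higher than either, and the log2 interaction was 2.48 ± 0.34 (SE; edgeR adjusted p = 0.00419). The calls of all 3 genes held in all 12 fits with 1 library left out, with adjusted p up to 0.0205.

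Other called genes of the peroxisomal cycle had an interaction of the same sign, though not all passed the test for lack of food at 500 mM NaCl alone: *dhs-28* had an edgeR adjusted p of 0.128 there and *acox-1.2* one of 0.440. The acyl-CoA oxidases, which carry out its first step, had the highest value: *acox-1.2* had 25.9, 18.8 and 16 CPM in unfed high-salt larvae and 5.97, 7.57 and 9.34 CPM in fed high-salt larvae, and 5.84, 3.28 and 3.99 CPM in unfed low-salt larvae and 48.3, 118 and 26.3 CPM in fed low-salt larvae. It was highest in fed low-salt larvae and lowest in unfed low-salt larvae, and the unfed high-salt libraries were all above the fed high-salt ones. Its log2 interaction was 5.3 ± 0.63 (SE; edgeR adjusted p = 0.00151), and the call held in 12 of the 12 fits. All 7 *acox-* genes tested had a positive value, against 48.2% of all genes, and their values ran from 1.1 to 5.3. Of these 7, 4 were called, where 2% of all genes were: *acox-1.2*, *acox-1.1* (2.17 ± 0.34, kept in 12 of 12), *acox-3* (2.19 ± 0.44, kept in 6 of 12) and *acox-1.5* (1.86 ± 0.46). These oxidases are close paralogs, so reads may have been divided between them. *dhs-28*, the dehydrogenase of the cycle, had 70.2, 85.5 and 56.8 CPM in unfed high-salt larvae and 32.6, 36.9 and 20.9 CPM in fed high-salt larvae, and 186.4, 179.6 and 195 CPM in unfed low-salt larvae and 370.5, 361 and 310.2 CPM in fed low-salt larvae. The log2 interaction of this gene was 2.12 ± 0.37 (SE; edgeR adjusted p = 0.0134), kept in 10 of 12. *acs-7*, an acyl-CoA synthetase of ascaroside synthesis, had a log2 interaction of 3.07 ± 0.51 (SE; edgeR adjusted p = 0.00948), kept in 12 of 12, and a log2 unfed/fed of 2.19 ± 0.38 at 500 mM, against -0.87 ± 0.35 at 100 mM NaCl.

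Peroxins, which build peroxisomes and import their proteins, had a positive interaction in 11 of 11 *prx-* genes tested, with a median log2 of 1.36 (1.12 with upper-quartile scaling), beside -0.04 for all genes. The test called 3 of them, where it called 2% of all genes. They were *prx-6*, the ATPase that recycles the import receptor, at 2.17 ± 0.40 (kept in 10 of 12), *prx-13* at 1.64 ± 0.38 (kept in 4 of 12) and *prx-19* at 1.36 ± 0.32. The peroxisomal protease *lonp-2* (1.99 ± 0.39, kept in 7 of 12) and the peroxisomal catalase *ctl-2* (1.52 ± 0.36) were called too. The calls of *acox-1.5*, *prx-19* and *ctl-2* each held in 3 of the 12 fits with 1 library left out, with edgeR adjusted p up to 0.135. Of 5 *pmp-* genes tested, 4 had a positive value, 1 was called (against 2% of all genes) and the lowest value was -0.29. The *acox-*, *prx-* and *pmp-* families, *acs-7*, *dhs-28* and *lonp-2* were singled out after their values were seen, so their counts describe these libraries and test nothing.

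**Figure D3:**
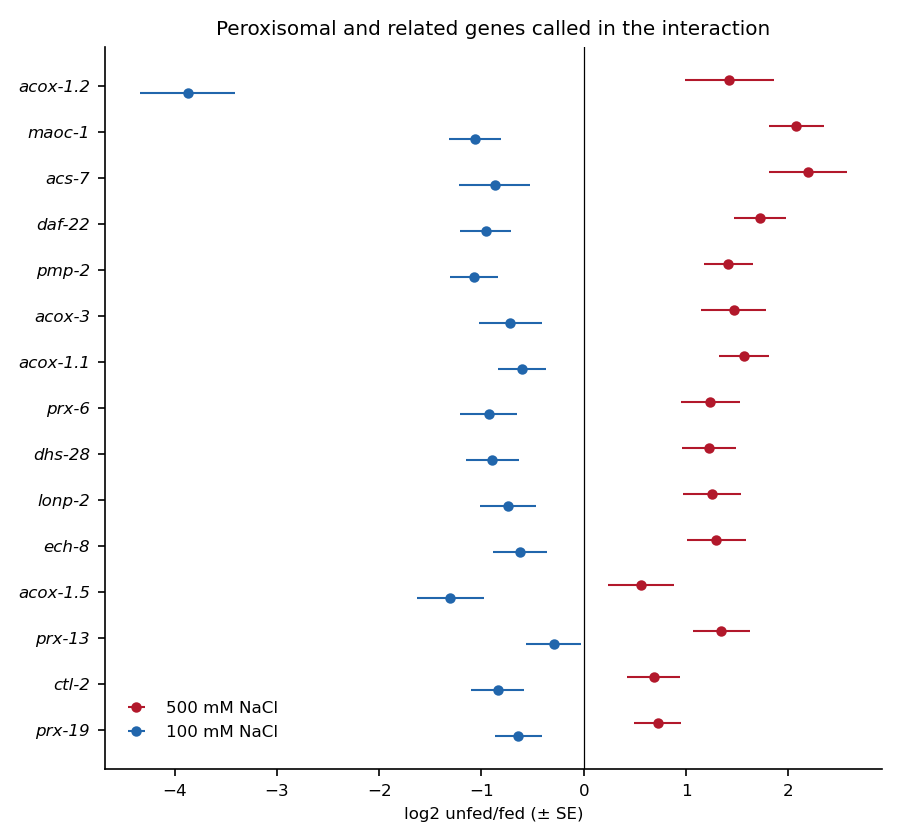
Log2 unfed/fed with its SE (horizontal axis) at 500 mM and at 100 mM NaCl for 15 peroxisomal and related genes called in the interaction, ordered by their interaction. All 15 points at 500 mM lie above 0, where 5 of the genes passed the test for lack of food, and all 15 points at 100 mM lie below 0; the genes were chosen after their values were seen.

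Fat breakdown and synthesis were represented more widely. Of 46 lipases and enzymes of fatty-acid oxidation tested, 12 were called, all positive, where 1.56% of all genes were. Their median log2 interaction was 1.08 (0.83 with upper-quartile scaling), and 13 were positive and 1 negative without the 2 libraries that stand apart. The 12 comprise *maoc-1*, *daf-22*, *dhs-28*, 4 *acox-* genes and *ech-7* (2.76, kept in 12 of 12), *ech-8* (1.92, kept in 8 of 12), *kat-1* (1.80, kept in 3 of 12), *acdh-12* (1.6, kept in 3 of 12) and *ech-1.2* (1.57, kept in 3 of 12). *kat-1* is a mitochondrial thiolase, *ech-1.2* belongs to the mitochondrial trifunctional protein and *ech-7* is a hydratase. *acs-2*, the mitochondrial acyl-CoA synthetase known to rise on fasting in adults, had a log2 interaction of 1.61 ± 0.94 (SE; edgeR adjusted p = 0.402).

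Of 18 genes tested on the list of desaturases, elongases and related enzymes, 4 were called (22.2%, against 2% of all genes), all positive. They were *hacd-1* (4.65), *elo-5* (3.81), *elo-2* (2.89) and *elo-6* (2.46). By its name *hacd-1*, the highest of the 4, is a dehydrogenase and neither a desaturase nor an elongase. All 4 calls held in all 12 fits, with edgeR adjusted p up to 0.0452, and the median of the list was 0.65. *elo-5* and *elo-6* elongate branched-chain fatty acids, and *elo-2* elongates palmitic acid. *elo-5* had 29.1, 33.9 and 64.6 CPM in unfed high-salt larvae and 20.1, 27 and 28 CPM in fed high-salt larvae. It had 6.14, 10.9 and 21.5 CPM in unfed low-salt larvae and 97.3, 105 and 114 CPM in fed low-salt larvae. The fed low-salt libraries were all above the other 9, and unfed low-salt A and B held the lowest values. *hacd-1*, named as a hydroxyacyl-CoA dehydrogenase, had 32.7, 66.0 and 50.8 CPM in unfed high-salt larvae and 18.4, 41.1 and 43.3 CPM in fed high-salt larvae, and 2.84, 3.80 and 5.21 CPM in unfed low-salt larvae and 68.0, 64.8 and 69.8 CPM in fed low-salt larvae. In unfed low-salt larvae it was lower than in all the other libraries, and its log2 interaction was 4.65 ± 0.49 (SE; edgeR adjusted p = 0.000583). *dgat-2*, a diacylglycerol acyltransferase of fat storage, had 29.8, 37.9 and 25.6 CPM in unfed high-salt larvae and 14, 11.5 and 12 CPM in fed high-salt larvae, with 17, 12.16 and 23.2 CPM in unfed low-salt larvae and 78.2, 94.8 and 107 CPM in fed low-salt larvae. The unfed libraries were above the fed ones at 500 mM and below them at 100 mM, and the log2 interaction was 3.74 ± 0.38 (SE; edgeR adjusted p = 0.000583). *far-2*, a secreted fatty-acid and retinol binding protein, had 32.5, 37.9 and 48.9 CPM in unfed high-salt larvae and 41.1, 38.4 and 31.5 CPM in fed high-salt larvae, with 52.1, 49.8 and 96.7 CPM in unfed low-salt larvae and 451, 683 and 288 CPM in fed low-salt larvae. Its groups overlapped at 500 mM but not at 100 mM, and its log2 interaction was 2.94 ± 0.49 (SE; edgeR adjusted p = 0.00948). *dgat-2* and *far-2* were chosen after their values were seen, and both calls held in all 12 fits.

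At 500 mM NaCl lack of food by itself passed the test for 13 genes upward and for *abu-14* downward. The 13 were *maoc-1*, *daf-22*, *pmp-2*, *acox-1.1*, *acs-7*, *acds-10*, *mecr-2*, *ceeh-2*, *dhrs-4*, *B0272.4*, *nhr-11*, *irg-3* and *fat-5*. The interaction was called for 10 of these 13, with log2 values from 1.68 for *ceeh-2*, an epoxide hydrolase, to 3.14 for *maoc-1*. Among these 10, the calls of *ceeh-2* (kept in 4 of 12), *nhr-11* (kept in 7 of 12) and *mecr-2* (kept in 8 of 12) were lost in some of the fits with 1 library left out, and those of *acds-10* and *B0272.4* in none. *fat-5*, a palmitoyl-CoA desaturase, had 67.6, 39.6 and 28.6 CPM in unfed high-salt larvae and 8.76, 9.64 and 10.2 CPM in fed high-salt larvae. It had 148, 124 and 95.4 CPM in unfed low-salt larvae and 19, 22 and 17 CPM in fed low-salt larvae. The unfed libraries were above the fed ones at both salt levels, the log2 interaction was -0.42 ± 0.42 (SE; edgeR adjusted p = 0.647), and *fat-5* was the 1 gene called in the same direction for lack of food at both. *irg-3* had a log2 interaction of 1.76 ± 0.61 (SE; edgeR adjusted p = 0.138) and *dhrs-4*, a dehydrogenase, one of 1.37 ± 0.37 (SE; edgeR adjusted p = 0.0693).

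The called cytosolic chaperones were lowest in unfed low-salt larvae. Of 19 genes of the Hsp70 and Hsp90 machinery tested, 4 were called (21.1%, against 2% of all genes), all positive, with a list median of 0.76. *hsp-70*, a stress-induced Hsp70, had 65.3, 65.9 and 17.8 CPM in unfed high-salt larvae and 109, 64.9 and 59.7 CPM in fed high-salt larvae. It had 5.14, 1.62 and 1.77 CPM in unfed low-salt larvae and 72.3, 69.8 and 45.2 CPM in fed low-salt larvae. All 3 unfed low-salt libraries were below the other 9, while the other 3 groups overlapped. This gave a log2 interaction of 3.80 ± 0.70 (SE; edgeR adjusted p = 0.0178), and the call was lost in the fit without fed high-salt B (edgeR adjusted p = 0.0519). The Hsp70 genes *F44E5.4* and *F44E5.5*, near-identical neighbours whose reads cannot be assigned with certainty, had log2 interactions of 4.62 ± 0.71 and 4.63 ± 0.72. For *F44E5.4* there were 1098, 741 and 289.9 CPM in unfed high-salt larvae and 799, 332 and 373 CPM in fed high-salt larvae, and 85.9, 63.8 and 27.6 CPM in unfed low-salt larvae and 1071, 1250.4 and 770.0 CPM in fed low-salt larvae. The unfed low-salt libraries were again the lowest, and both calls held in all 12 fits. *hsp-110*, a nucleotide exchange factor for Hsp70, had a log2 interaction of 2.08 ± 0.50 (SE; edgeR adjusted p = 0.0443), kept in 3 of the 12 fits.

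Of 14 small heat shock proteins, which hold unfolded proteins, 2 were called (14.3%, against 2% of all genes), both positive, and the median was 2.29 (2.06 with upper-quartile scaling). The test called 1 of them with upper-quartile scaling and 1 without the 2 libraries that stand apart. *hsp-16.1* had 315, 117 and 45.9 CPM in unfed high-salt larvae and 169, 50.6 and 63.2 CPM in fed high-salt larvae, with 25.4, 32.2 and 8.31 CPM in unfed low-salt larvae and 324, 254 and 159.7 CPM in fed low-salt larvae. The spread within the high-salt groups was wide, but all unfed low-salt libraries were below the other 9. The log2 interaction came to 4.23 ± 0.97 (SE; edgeR adjusted p = 0.0430), and the call held in 5 of the 12 fits, with adjusted p up to 0.115. Its near-identical copy *hsp-16.11* had 4.33 ± 1.05 (SE; edgeR adjusted p = 0.0538), outside the threshold. *hsp-12.3* had 2.52 ± 0.54 (SE; edgeR adjusted p = 0.0288), kept in 7 of 12. *hsp-4*, the endoplasmic reticulum chaperone BiP, was the 1 called gene of 21 that fold proteins in that compartment (4.76%), at 2.15 ± 0.41 (SE; edgeR adjusted p = 0.0181), kept in 9 of 12.

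**Figure D4:**
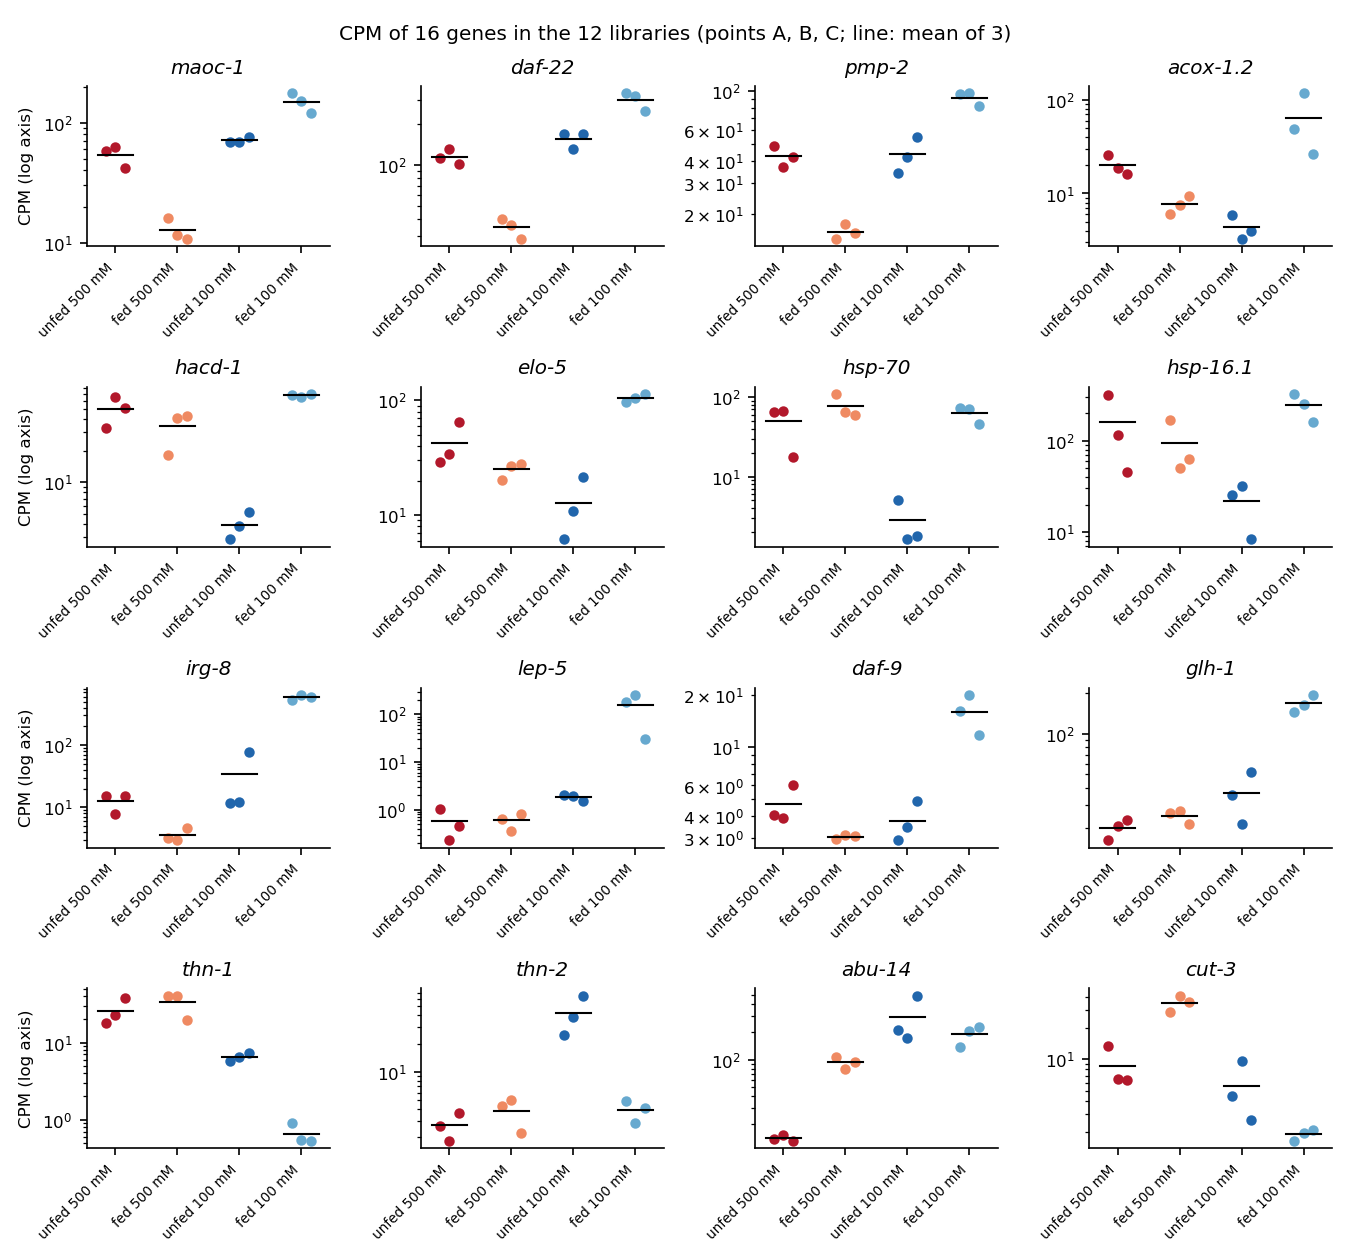
CPM of 16 genes on a log axis in unfed 500 mM, fed 500 mM, unfed 100 mM and fed 100 mM NaCl larvae, with 1 point per library and a line at the mean of 3. The fed low-salt libraries are above the other 9 for *maoc-1*, *daf-22*, *pmp-2*, *acox-1.2*, *elo-5*, *irg-8*, *lep-5*, *daf-9* and *glh-1*. The unfed low-salt libraries are below the other 9 for *acox-1.2*, *hacd-1*, *hsp-70* and *hsp-16.1*. For *maoc-1*, *daf-22* and *pmp-2* the fed high-salt libraries are below the other 9.

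Several genes with a positive interaction were abundant in fed low-salt larvae and low in the 3 other groups. *irg-8*, an infection response gene, had 15.2, 7.88 and 15.1 CPM in unfed high-salt larvae and 3.23, 2.97 and 4.67 CPM in fed high-salt larvae. It had 11.7, 12.24 and 78.4 CPM in unfed low-salt larvae and 536, 642 and 595 CPM in fed low-salt larvae. Unfed low-salt C was the highest of the unfed libraries, and the log2 interaction was 5.97 ± 0.89 (SE; edgeR adjusted p = 0.00795), kept in all 12 fits. Its neighbour *dod-19*, named as downstream of DAF-16, had 10.4, 6.23 and 14.7 CPM in unfed high-salt larvae and 9.35, 5.51 and 10.8 CPM in fed high-salt larvae, and 29.4, 19.8 and 106 CPM in unfed low-salt larvae and 502, 547 and 776 CPM in fed low-salt larvae. Its log2 interaction was 3.86 ± 0.75 (SE; edgeR adjusted p = 0.0209), kept in 8 of the 12 fits. *lys-2*, a lysozyme, had 3.84 ± 0.65 (SE; edgeR adjusted p = 0.0101), kept in all 12 fits. Of 183 C-type lectins tested, which bind sugars, 5 were called positive and 2 negative, or 3.83% against 2% of all genes (3 positive and 3 negative with upper-quartile scaling, 9 positive and 6 negative without the 2 libraries that stand apart), among them *clec-265* (3.15 ± 0.64, kept in 5 of 12), *clec-186* (2.56 ± 0.45, kept in 11 of 12) and *clec-187* (2.45 ± 0.49, kept in 6 of 12), and on the negative side *clec-7* (-2.53 ± 0.53, kept in 6 of 12) and *clec-75* (-2.34 ± 0.52, kept in 3 of 12). Of 67 UDP-glucuronosyltransferases, which conjugate lipophilic compounds, 7 were called positive and 1 negative, or 11.9% against 2% of all genes; *ugt-44* had 3.03 ± 0.56 (kept in 11 of 12), *ugt-62* 2.99 ± 0.52 (kept in 12 of 12) and *ugt-15* -2.74 ± 0.65 (kept in 3 of 12). Of 47 glutathione S-transferases, whose median was -0.15 with 22 above 0, 2 were called (4.26%, against 2% of all genes), *gst-38* (2.91 ± 0.49, kept in 12 of 12) and *gst-26* (2.84 ± 0.62, kept in 5 of 12). The uncharacterised genes *K08D8.4* (4.71 ± 0.68) and *C34H4.2* (4.05 ± 0.92) were among the 10 highest, and their calls held in 12 and 4 of the 12 fits.

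Of 16 heterochronic genes, which time larval stages, 2 were called (12.5%, against 2% of all genes), *lep-5* and *lin-46*, with a median of 0.34. With upper-quartile scaling the counts were 1 positive and 2 negative. Of 16 genes of dauer formation and steroid hormone synthesis, 2 were called (12.5%), *daf-9* and *daf-36*, while 5 of the 16 lay above 0 and the median was -0.13. *lep-5*, a long noncoding RNA of the heterochronic pathway, had 1.04, 0.229 and 0.462 CPM in unfed high-salt larvae and 0.645, 0.364 and 0.812 CPM in fed high-salt larvae. It had 2.05, 1.97 and 1.5 CPM in unfed low-salt larvae and 178, 257 and 30.3 CPM in fed low-salt larvae. It was at most 2.05 CPM outside fed low-salt larvae, and its log2 interaction was 6.22 ± 1.15 (SE; edgeR adjusted p = 0.0201). This value rests on few reads at 500 mM NaCl, 22 over the 3 unfed and 22 over the 3 fed libraries, and limma-voom did not call it (adjusted p = 0.177). The call was lost when fed high-salt B or unfed low-salt B was left out, with edgeR adjusted p up to 0.0512. *daf-9*, the cytochrome P450 that makes dafachronic acid, the steroid that promotes growth beyond arrest, had 4.03, 3.89 and 6.06 CPM in unfed high-salt larvae and 2.96, 3.09 and 3.05 CPM in fed high-salt larvae, and 2.89, 3.45 and 4.87 CPM in unfed low-salt larvae and 16.09, 20.1 and 11.7 CPM in fed low-salt larvae. The log2 interaction of this gene was 2.72 ± 0.47 (SE; edgeR adjusted p = 0.0124), lost without fed low-salt B (adjusted p = 0.0515). *daf-36*, an oxygenase upstream in the same synthesis, had 2.34 ± 0.47 (SE; edgeR adjusted p = 0.0236), and *lin-46*, a heterochronic scaffold protein, had 2.12 ± 0.45 (SE; edgeR adjusted p = 0.0288). The calls of *daf-36* and *lin-46* each held in 6 of the 12 fits.

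Collagens of the cuticle showed calls in both directions. Of the *col-* genes tested, 8.28% were called, against 2% of all genes, with 11 positive and 1 negative. Examples are *col-145* (3.59 ± 0.69), *col-180* (3.30 ± 0.66) and *col-166* (2.22 ± 0.47), kept in 4 to 8 of the 12 fits. *col-180* had 6.33, 3.44 and 2.02 CPM in unfed high-salt larvae and 1.18, 0.970 and 1.22 CPM in fed high-salt larvae, and 14.9, 16.9 and 39.8 CPM in unfed low-salt larvae and 50.8, 102 and 53.2 CPM in fed low-salt larvae. *col-165* had -3.85 ± 0.81 (SE; edgeR adjusted p = 0.0302), kept in 4 of the 12 fits. Of 76 hedgehog-related and patched-related genes, 25 lay above 0, with a median of -0.37, and 4 were called (5.26%, against 2% of all genes). The test called 3 positive, the neighbours *grd-10* (2.11, kept in 4 of 12), *grd-13* (1.89, kept in 3 of 12) and *grd-3* (1.75, kept in 5 of 12), and *ptr-3*, a patched-related protein, was called negative (-1.43 ± 0.33, kept in 3 of 12). Without the 2 libraries that stand apart these counts were 3 positive and 3 negative.

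The 3 called germline markers were highest in fed low-salt larvae. All 3 were positive and made up 14.3% of the 21 markers tested, against 1.56% of all genes called positive. With upper-quartile scaling the test called 1 positive and 0 negative. Over the list, the median log2 interaction was 1.38, with 19 of 21 above 0, against 48.2% of all genes. *glh-1*, a helicase of germ granules, had 16.3, 20.8 and 22.9 CPM in unfed high-salt larvae and 25.9, 26.9 and 21.7 CPM in fed high-salt larvae. It had 35.2, 21.6 and 52.1 CPM in unfed low-salt larvae and 146, 162 and 194 CPM in fed low-salt larvae. The fed low-salt libraries lay above the other 9, and the unfed high-salt and fed high-salt libraries overlapped. This gave a log2 interaction of 1.89 ± 0.41 (SE; edgeR adjusted p = 0.0325). *pgl-3*, a germ granule protein, had 2.29 ± 0.53 and *csr-1*, an Argonaute protein, had 1.85 ± 0.45. The 3 calls held in 3 to 5 of the 12 fits, with adjusted p up to 0.126, and there were 6 positive and 0 negative without the 2 libraries that stand apart. In whole larvae, fewer cells of a type and less RNA per cell cannot be told apart. The summed CPM of the germline list was 374 to 563 in unfed high-salt, 444 to 545 in fed high-salt, 333 to 580.2 in unfed low-salt and 947 to 1167 in fed low-salt larvae, and the part of germ cell number in other results was not tested. *cey-2*, a cold-shock-domain protein on the embryo list, had 2.24 ± 0.47 (kept in 4 of 12).

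Genes of protein synthesis, respiration and protein turnover had positive values with few calls. Of 68 mitochondrial ribosomal proteins, 67 had a positive interaction, against 48.2% of all genes, and 8 were called (11.8%, against 2% of all genes), with a median of 1.07. *mrpl-16* (1.94 ± 0.43), *mrpl-11* (1.76 ± 0.36) and *mrpl-4* (1.71 ± 0.36), of its large subunit, held their calls in 4 to 6 of the 12 fits. All 42 nuclear genes of mitochondrial respiration had a positive value (median 0.72), and *sdha-2* of complex II (2.06 ± 0.48, kept in 3 of 12) and *asb-1* of the ATP synthase (1.77 ± 0.36, kept in 4 of 12) were called, or 4.76%. All 32 proteasome subunits (median 0.84) and all 76 cytosolic ribosomal proteins (median 0.41) had positive values. EdgeR called 0 of either, with 20 and 2 at an unadjusted p under 0.05; DESeq2 called 10 and 1 and limma-voom 0 and 0. With upper-quartile scaling the medians of these 4 lists were 0.82, 0.46, 0.58 and 0.18. Genes of a list share libraries and scaling, so their common sign is not a set of independent results. In propionate and methionine metabolism 2 of 25 were called (8%), *ahcy-1* (2.43 ± 0.59), the S-adenosylhomocysteine hydrolase, and *mel-32* (2.18 ± 0.53), the serine hydroxymethyltransferase. *fbp-1*, the fructose bisphosphatase of gluconeogenesis, had 1.67 ± 0.41, and these last 3 calls held in 2 or 3 of the 12 fits. The aquaporins, channels for water or glycerol, had 2 calls of 12 (16.7%, against 2% of all genes), *aqp-4* (1.92 ± 0.44, kept in 3 of 12) and *aqp-11* (1.49 ± 0.37, kept in 3 of 12), with 0 positive and 0 negative with upper-quartile scaling. *cpr-3*, a cathepsin B-like protease, had 2.44 ± 0.52 (kept in 7 of 12).

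**Figure D5:**
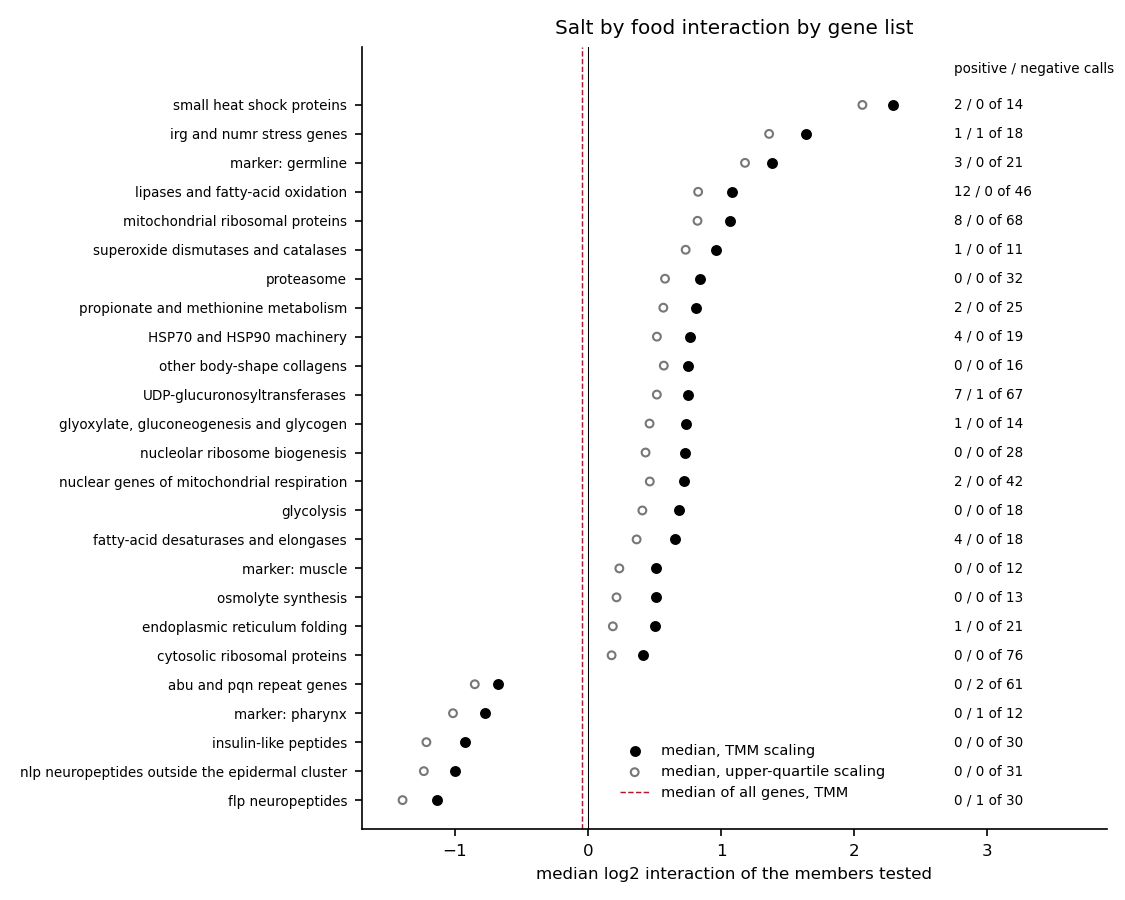
Median log2 interaction (horizontal axis) of the tested members of lists with at least 10 tested genes and a median more than 0.5 from 0, and of cytosolic ribosomal proteins, with TMM scaling (filled) and upper-quartile scaling (open). Numbers at the right give positive and negative calls of the members tested, and the dashed line marks the median of all genes, -0.04.

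Negative interactions included secreted and cuticle proteins. Of the 3 thaumatin genes tested, a family of secreted proteins named after plant defence proteins, 2 were called (66.7%, against 2% of all genes). Both were negative and lie next to each other in the genome. *thn-1* had 17.7, 22.9 and 37.3 CPM in unfed high-salt larvae and 40.7, 39.99 and 19.5 CPM in fed high-salt larvae. It had 5.79, 6.47 and 7.26 CPM in unfed low-salt larvae and 0.914, 0.538 and 0.529 CPM in fed low-salt larvae. The high-salt groups overlapped and were above all low-salt libraries, and the fed low-salt libraries were the lowest. *thn-2* had 2.65, 1.83 and 3.64 CPM in unfed high-salt larvae and 4.30, 4.97 and 2.23 CPM in fed high-salt larvae, with 24.5, 38.3 and 65.3 CPM in unfed low-salt larvae and 4.88, 2.87 and 4.1 CPM in fed low-salt larvae. Here the unfed low-salt libraries were all above the other 9. The log2 interaction was -3.72 ± 0.50 (SE; edgeR adjusted p = 0.00419) for *thn-1* and -3.99 ± 0.56 (SE; edgeR adjusted p = 0.00479) for *thn-2*, and both calls held in all 12 fits. *scl-2*, a secreted SCP-domain protein, was also highest in unfed low-salt larvae, with 0, 0.871 and 1.5 CPM in unfed high-salt, 2.15, 4.67 and 1.62 CPM in fed high-salt, 71.5, 148 and 102 CPM in unfed low-salt and 31.6, 19.4 and 11.3 CPM in fed low-salt larvae. The log2 interaction came to -4.11 ± 0.83 (SE; edgeR adjusted p = 0.0275), kept in 6 of the 12 fits.

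*abu-14*, of a family with glutamine- and asparagine-rich repeats, was the 1 gene that passed the test downward for lack of food at 500 mM NaCl. It had 13.9, 15.1 and 13.1 CPM in unfed high-salt larvae and 108, 79.7 and 94.6 CPM in fed high-salt larvae. It had 213, 170.4 and 498 CPM in unfed low-salt larvae and 139, 207 and 225 CPM in fed low-salt larvae. The unfed high-salt libraries lay below the other 9, the log2 unfed/fed was -2.74 ± 0.37 at 500 mM and 0.63 ± 0.35 at 100 mM NaCl, and the log2 interaction was -3.37 ± 0.51 (SE; edgeR adjusted p = 0.00683). *cut-3*, a cuticlin of the larval cuticle, had 13.5, 6.41 and 6.29 CPM in unfed high-salt larvae and 28.7, 41.1 and 35.7 CPM in fed high-salt larvae, and 4.49, 9.66 and 2.60 CPM in unfed low-salt larvae and 1.65, 1.97 and 2.1 CPM in fed low-salt larvae. Its fed high-salt libraries were above all the others, its fed low-salt libraries below all the others, and its log2 interaction was -3.57 ± 0.59 (SE; edgeR adjusted p = 0.00948). Both calls held in all 12 fits. Of 61 *abu-* and *pqn-* genes, *abu-14* and *pqn-48* (-2.22 ± 0.50, kept in 3 of 12) were called, or 3.28% against 2% of all genes, both negative, and the median was -0.68. Among the 10 lowest, *C18H7.1* (-3.34 ± 0.58) and *F47H4.2* (-3.33 ± 0.55) kept their calls in all 12 fits, and *T26H5.9* (-4.39 ± 0.95) and *R05A10.1* (-3.56 ± 0.73) in 4 and 5.

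Most neuropeptide genes had negative values, with few calls, where 48.2% of all genes lay above 0. All 30 *flp-* genes, which encode FMRFamide-like peptides, had a negative value (median -1.13), as had 28 of 31 *nlp-* genes outside the epidermal cluster (median -1.0) and 24 of 30 insulin-like peptide genes (median -0.92, highest value 6.05). The medians were -1.3, -0.96 and -0.92 without the 2 libraries that stand apart. Of these 30 *flp-*, 31 *nlp-* and 30 insulin-like genes 1 was called, *flp-3*. This is 3.33% of the *flp-* genes and 0% of the *nlp-* and of the insulin-like genes, against 2% of all genes. *flp-3* had 21.9, 36 and 44.5 CPM in unfed high-salt larvae and 34.6, 43.5 and 21.7 CPM in fed high-salt larvae. It had 149, 201 and 78.6 CPM in unfed low-salt larvae and 31.9, 22.9 and 31.8 CPM in fed low-salt larvae. The high-salt groups overlapped, the unfed low-salt libraries lay above the other 9, and the log2 interaction was -2.28 ± 0.51 (SE; edgeR adjusted p = 0.0339), kept in 5 of the 12 fits. With upper-quartile scaling 4 *flp-*, 1 *nlp-* and 2 insulin-like genes were called, all negative. *ins-1*, an insulin-like peptide known to act against insulin receptor signalling, had -1.5 ± 0.38 (SE; edgeR adjusted p = 0.0511), and *daf-28*, a ligand that activates that receptor, had -0.60 ± 0.48 (SE; edgeR adjusted p = 0.551). All 12 pharynx markers also had negative values (median -0.77), with 1 call (8.33%), *phat-5* (-2.08 ± 0.42, kept in 6 of 12). Their summed CPM was 2652 to 6914 in unfed high-salt, 5935 to 8556 in fed high-salt, 2332 to 3247 in unfed low-salt and 1327 to 2239 in fed low-salt larvae. *mtl-2*, an intestinal metallothionein, had -2.27 ± 0.52 (SE; edgeR adjusted p = 0.0383), kept in 3 of 12, and *nnt-1*, a transhydrogenase of mitochondria, had -1.82 ± 0.34 (SE; edgeR adjusted p = 0.0159), kept in 7 of 12. Of 253 nuclear hormone receptors, *nhr-11* (1.80 ± 0.34, kept in 7 of 12) and *nhr-221* (-2.69 ± 0.61, kept in 4 of 12) were called, or 0.791%, below the 2% of all genes.

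Genes known for the salt response did not pass the interaction test. *gpdh-1* and *gpdh-2*, which make the osmolyte glycerol, had log2 interactions of 0.55 ± 0.48 (SE; edgeR adjusted p = 0.594) and 0.99 ± 0.36 (SE; edgeR adjusted p = 0.151). *gpdh-1* had 31.5, 39.5 and 57.4 CPM in unfed high-salt larvae and 37, 65.8 and 26.6 CPM in fed high-salt larvae. It had 10.5, 9.75 and 10.5 CPM in unfed low-salt larvae and 9.51, 20.3 and 15.7 CPM in fed low-salt larvae. All high-salt libraries lay above all low-salt libraries, and unfed and fed libraries overlapped at both salt levels. Of 13 genes of osmolyte synthesis edgeR called 0, with 3 at an unadjusted p under 0.05, 1 called by DESeq2 and 0 by limma-voom, and *hmit-1.1*, a myo-inositol transporter raised by salt, had -0.11 ± 0.45 (SE; edgeR adjusted p = 0.928). *nlp-29*, an epidermal antimicrobial peptide gene, had 0.16 ± 0.75 (SE; edgeR adjusted p = 0.940), and *catp-3*, of the sodium pump list, had 3.99 ± 0.99 (SE; edgeR adjusted p = 0.0580). *sod-3* (-0.85 ± 0.76) and *sod-5* (-0.43 ± 1.16), superoxide dismutases raised by DAF-16, and *daf-16* itself (0.01 ± 0.36), the FOXO factor of arrest, had edgeR adjusted p values of 0.607 to 0.994. *icl-1*, of the glyoxylate cycle, had -0.63 ± 0.56 (SE; edgeR adjusted p = 0.601) and *acdh-1*, an acyl-CoA dehydrogenase sensitive to diet, had 0.35 ± 0.62 (SE; edgeR adjusted p = 0.812). *mlt-10*, a molting gene, had -0.05 ± 0.63 (SE; edgeR adjusted p = 0.976) and *col-19*, an adult collagen with at most 61 reads in a group, had 0.77 ± 1.69 (SE; edgeR adjusted p = 0.853). A miss of the threshold does not show equal food responses: the SE of these genes' log2 interaction was 0.36 to 1.69, while the smallest called value over all genes was 1.24.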

How the data were processed

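mRNA of whole larvae was sequenced from 12 samples in 4 groups of 3, all used here, from libraries that, per the labels' protocols, carry no strand information; overlapping and antisense genes therefore cannot be told apart. The deposited files hold raw read counts per gene. The submitters' processing notes name Bowtie 1.1.2, HTSeq, edgeR and Cuffdiff; counting settings and genome build are not given in the sources used here, so no coordinates are printed. The authors' deposited workbook was not used.

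The 5 summary lines were left out of the gene table of 44968 features. RefSeq's table for WBcel235 supplied symbols for 43592 features and the order of neighbours; 20 features were ribosomal RNA genes. In R 4.3.3 with edgeR 4.0.16, filterByExpr (minimum count 10, minimum total 15) left 18028 genes, libraries were scaled by TMM, and 1 model with a coefficient per group over all 12 libraries gave each contrast by the two-sided robust quasi-likelihood F-test with Benjamini-Hochberg adjustment over all genes at 0.05. The SE is the log2 value divided by the square root of F. CPM use the TMM-scaled library size. Depth was 5613260 to 76542711 reads on genes. The steps were tested on simulated counts. There they called 2 of 100 genes given a 2-fold interaction and 55 of 100 given a 4-fold interaction, with 6 false calls. Alternatives used limma 3.58.1 and DESeq2 1.42.0. Replicate letters were not treated as pairs: over 18 pairs of libraries with the same letter, the correlation of deviations was -0.0942 to 0.352, and 7 exceeded 0.1.

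The comparison, the 52 gene lists and the rule for named genes were chosen with earlier results of these data known, so nothing here is independent support. The rule takes the 10 highest and 10 lowest called values at a mean of at least 10 CPM, up to 3 members of each list by p, genes called for lack of food at both salt levels with opposite signs, 13 focal genes and genes next to the threshold. It names 179 genes and the text gives part of them. Genes outside the rule were chosen after their values were seen: *acox-1.1*, *acox-1.5*, *acox-3*, *dhs-28*, *acs-7*, *ech-7*, *ech-8*, *ech-1.2*, *kat-1*, *acdh-12*, *prx-6*, *prx-13*, *prx-19*, *lonp-2*, *dgat-2*, *elo-2*, *far-2*, *fat-5*, *hsp-110*, *clec-7*, *clec-75*, *ugt-15*, *ptr-3*, *B0272.4*, *acds-10*, *mecr-2*, *ceeh-2*, *irg-3* and *dhrs-4*.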

Additional observations from a re-analysis of the deposited data

Results flagged for a closer look

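Each of the 360 genes called in the interaction has a food effect that differs between the salt levels by the test itself, and the report gives them. Among them, *maoc-1* (log2 interaction 3.14), *daf-22* (2.68) and *pmp-2* (2.48) passed the test for lack of food at each salt level in opposite directions. Outside the gene counts, 17.15% of the reads of unfed high-salt A were assigned to no gene, against 1.87% to 5.9% in the other 11 libraries.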

How the results depend on the processing

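The 360 calls (282 positive, 78 negative) became 1019 (772 positive, 247 negative) with no count filter, 606 (359 positive, 247 negative) with at least 5 CPM in 3 libraries, 73 (58 positive, 15 negative) against a 1.5-fold change, 1225 (838 positive, 387 negative) with DESeq2, 630 (408 positive, 222 negative) without unfed high-salt A and fed high-salt C, and 63 to 967 (48 to 723 positive, 12 to 381 negative) with 1 library left out. With the replicate letter as a block there were 585 (442 positive, 143 negative), and 217 (161 positive, 56 negative) with the block and without both libraries, an alternative chosen after seeing the data, as were list medians outside the scalings. Whether libraries with the same letter were prepared together is not stated in the labels and was not tested. Upper-quartile scaling gave 379 (185 positive, 194 negative). RLE scaling (367), limma-voom (389), no robust estimation (356) and no rRNA genes (338) kept the total within 1.5 times. Over 24 alternatives, 2256 values of the 94 called genes named kept their sign, and 583 missed the threshold. Of the values of the uncalled genes named, 376 stayed the same, 36 became stronger and 42 changed sign. *catp-3* passed the threshold without both libraries (edgeR adjusted p = 0.0130), with the block (edgeR adjusted p = 0.0428) and with DESeq2 (adjusted p = 0.0160). It did not pass with limma-voom (adjusted p = 0.0572). *ins-1* passed with upper-quartile scaling (edgeR adjusted p = 0.0266), the block (edgeR adjusted p = 0.0403), DESeq2 (adjusted p = 0.00524) and limma-voom (adjusted p = 0.0469). Without both libraries it did not (edgeR adjusted p = 0.0742). *gpdh-2* passed with DESeq2 (adjusted p = 0.0333) but not with limma-voom (adjusted p = 0.119). *acs-2* passed without unfed low-salt C (2.93, edgeR adjusted p = 0.0344) but not with DESeq2 (adjusted p = 0.381). Of the 19 uncalled genes named, 8 had values on the other side of 0: *acdh-1* (-0.0202 without both, -0.12 without both and with the block); *col-19* (-1.71 without both, -0.43 limma-voom, -1.7 without both and with the block, -1.5 to 1.63 with 1 library left out); *daf-16* (-0.0166 block, -0.0157 RLE, -0.30 upper-quartile, -0.18 with the 5 CPM filter, -0.0134 limma-voom, -0.0148 DESeq2, -0.12 to 0.17 with 1 library left out); *hmit-1.1* (0.0675 unfiltered, 0.14 without both, -0.34 to 0.19 with 1 library left out); *icl-1* (-0.97 to 0.16 with 1 library left out); *mlt-10* (0.0356 block, 0.0918 unfiltered, 0.0106 without rRNA, 0.38 without both, 0.13 limma-voom, 0.21 without both and with the block, -0.55 to 0.66 with 1 library left out); *nlp-29* (-0.0571 upper-quartile, -0.28 without both, -0.22 to 0.73 with 1 library left out); *sod-5* (0.21 without both and with the block, -1.16 to 0.30 with 1 library left out). Of 25 list medians, that of the other body-shape collagens (0.75) turned to -0.65 without both libraries, -1.13 to 1.34 with 1 library left out (the lowest without unfed high-salt A), -0.15 with limma-voom and -0.82 with the block and without both. The cause was not tested. Depth limits low genes most in unfed high-salt A and fed high-salt C, which hold 4779596 and 3167905 reads outside rRNA genes.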

Other observations

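Called genes were in part neighbours. In the RefSeq gene order of WBcel235, 42 of the 358 called genes placed, 11.7%, stood in 19 runs of adjacent called genes with the same sign. No share for other sets of genes was taken, so whether 11.7% is more than gene order alone gives was not tested. The longest run held 4 collagens, *col-167* to *col-170*. Others were *acox-1.1* with *acox-1.2*, *acdh-12* with *maoc-1*, *dod-19* with *irg-8*, *thn-1* with *thn-2*, *clec-186* with *clec-187*, and *grd-13*, *grd-3* and *grd-10*. Several runs are paralogs whose reads may be shared, and the libraries carry no strand information.

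An interaction on the log2 scale need not hold on the linear scale. The difference of differences in mean CPM had the sign of the log2 interaction for 282 of 282 positive and 78 of 78 negative genes, and for 87.9% of all genes tested. The called genes were selected for their log2 interaction in these same libraries, with a smallest absolute value of 1.24. The agreement in sign is therefore no support for the calls.

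Most other lists had few calls. The irg and numr stress genes had *irg-8* called positive and *mtl-2* called negative among 18 (11.1%, against 2% of all genes), with a median of 1.64. EdgeR called 0 of 18 glycolysis genes, 0 of 28 nucleolar genes and 0 of 12 muscle markers, whose medians were 0.68, 0.73 and 0.51, with 8, 11 and 3 at an unadjusted p under 0.05. DESeq2 called 4, 6 and 2 of them, and limma-voom 0, 1 and 0.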
